A study of Drosophila melanogaster with 14 samples.

Results

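The sites described here are places on Drosophila melanogaster chromatin where dCTCF was found in wild-type flies and in flies with a shortened dCTCF, and where CP190 was called with it in both. They were chosen by the peak calls themselves, as peaks of the wild-type HA list that overlapped a peak of each of the other 5 lists by at least 1 bp. Of the 627 wild-type HA peaks, 259 met this rule (41.3%, 95% Wilson interval 37.5 to 45.2). Because the rule used the calls of all 6 lists, the presence of every protein at these members is given and is no finding. What the rule left free is described below, namely how strong each protein ranked there, where within the site CP190 was centred, and which genes lay nearby.

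Chromatin came from whole adult flies of 2 to 3 days, a strain labelled Oregon-R, in 2 genotypes. One is labelled dCTCFdelta705-733 (the deletion line), a dCTCF without those residues, and the other dCTCFwt (wild type). The labels do not say how the HA-tagged alleles were made, under which promoter they are expressed or how many lines were used. Each of the 6 combinations of an antibody (anti-HA, anti-dCTCF or anti-CP190) with a genotype had 2 libraries, and 1 mouse and 1 rat preimmune library from flies labelled wt were the controls, giving 14 libraries by chromatin immunoprecipitation with sequencing (ChIP-seq). The files used here hold 1 peak list for each combination, which the labels name for both libraries, so that no spread between identified replicates can be given and no test between genotypes was made. Read counts are not part of these lists, so the depth is unknown, and intervals over peaks cover counting error only. In whole flies, weaker binding in every cell and binding in fewer cells cannot be told apart.

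dCTCF is a zinc finger protein that binds DNA directly and marks chromatin boundaries, among them those of the homeotic genes. CP190 is a BTB domain protein that is brought to chromatin by DNA-binding insulator proteins such as dCTCF, Su(Hw) and BEAF-32, and it is also common at promoters. A CP190 peak at a dCTCF site can therefore lie on the dCTCF position itself or beside it.

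The rule asked for an overlap of 1 bp, and every member exceeded this by far. The smallest overlap between an HA interval and a CP190 interval was 242 bp, at 3R 17449293 to 17449945 beside Eh, the gene of eclosion hormone. The next smallest were 282 bp at 3R 28345302 to 28345695 beside Moca-cyp, a cyclophilin gene, and 289 bp at 2L 14588953 to 14589241 beside CG42680. Each of these overlaps was the full width of the narrower interval, so they reflect narrow peaks. That interval was the deletion CP190 peak at Eh, the wild-type CP190 peak at Moca-cyp and the HA peak at CG42680. Just outside were sites of dCTCF in both genotypes whose HA interval touched a CP190 peak in neither genotype, although one came close. The gap to a wild-type CP190 peak was 121 bp at 3R 14576864 to 14578506 inside stumps. The gap to a deletion-line CP190 peak was 369 bp at 2L 19415173 to 19415905 inside Pax, and 385 bp at 2L 870434 to 872305 inside PNUTS. Each list also ends at a threshold of its own, and 10 members had a global irreproducible discovery rate (the IDR, which measures how reproducible a peak is) above 0.01 in the wild-type HA list and 2 in the wild-type dCTCF list. The 10 were not only weak peaks. Among them were the 3 members with the highest wild-type HA enrichment, whose −log10 global IDR in that list was 1.49, 1.64 and 1.79.

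The members had a higher median enrichment than the whole list for every antibody and genotype, with a wide spread. Their median fold enrichment over preimmune, the authors' own value, was 135 in the deletion HA list (whole list 35.9) and 27.9 in the wild-type HA list (whole list 10.3). For the dCTCF antibody it was 25.8 in the deletion line (whole list 6.57) and 31.2 in wild type (whole list 7.91). For CP190 it was 10.6 in the deletion line (whole list 7.27) and 15.7 in wild type (whole list 7.13). The member median of the CP190 lists thus stood further above its list in wild type than in the deletion line. Single members were far weaker, down to 2.71-fold for CP190 in the deletion line and 2.88-fold in wild type. The rule used the calls of these lists, so these values are a description.

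To set the genotypes side by side, each antibody's peaks were paired between genotypes (each the strongest overlapping partner of the other) and ranked by fold enrichment among the same pairs in both lists, with place 1 the strongest. This gave 2337 CP190 pairs, 519 HA pairs and 510 dCTCF-antibody pairs. Of the members, 258 were in a CP190 pair and all 259 in an HA and a dCTCF-antibody pair. A pair of members shared 1 dCTCF-antibody peak in each genotype. The member left out of the CP190 pairs lay at X 2948932 to 2949690 inside kirre, which encodes an adhesion protein of the immunoglobulin family, and had 28.5-fold CP190 enrichment in the deletion line and 25.4-fold in wild type. Places are relative, so a lower place at some pairs means a higher one at others.

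CP190 held a lower place in the deletion line than in wild type at nearly all members, although a peak was called in both. The place was lower at 233 of 258 members (90.3%, 86.1 to 93.4), against 40.6% of all 2337 CP190 pairs. Among the 1891 pairs that touched no HA or dCTCF peak in either genotype, 629 were lower (33.3%, 31.2 to 35.4). The remaining 188 pairs, which touched an HA or dCTCF peak but were not at members, had 86 with a lower place (45.7%, 38.8 to 52.9). The median member stood at 51.0% of the way down the pairs in the deletion line and at 25.2% in wild type, and the median change of place was 13.6 percentage points. At pairs away from dCTCF the median change was −2.44 points. Of the 258 members, 67 were lower by 25 percentage points or more (26.0%, 21.0 to 31.6), against 3.72% of all pairs and 13 of the 1891 away from dCTCF. A called peak in both genotypes therefore did not mean an equal place.

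**Figure D1:**
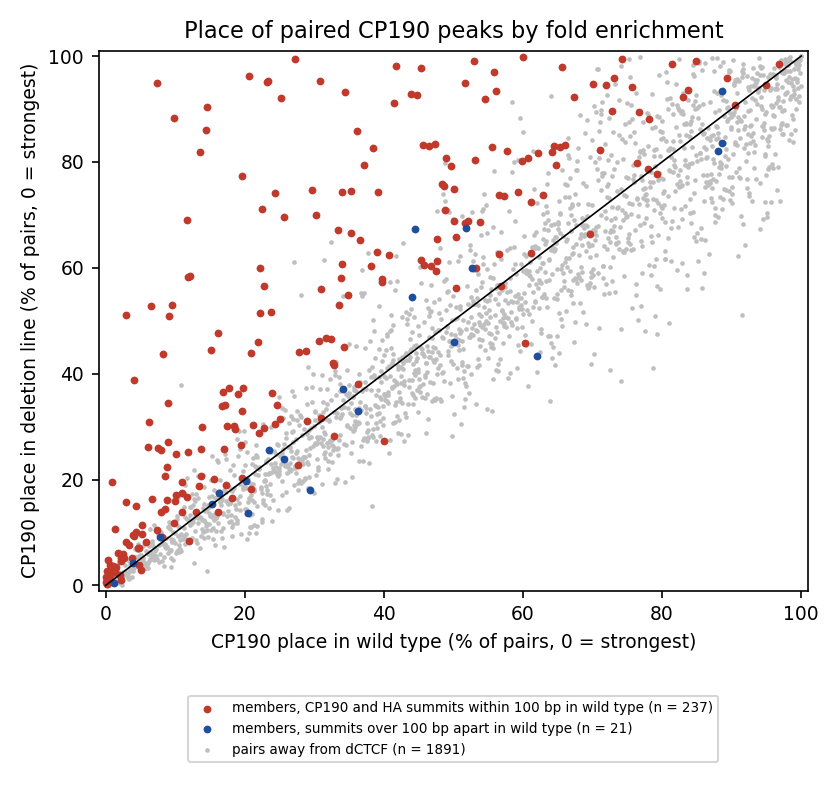
Place of each paired CP190 peak among 2337 pairs, in the deletion line (vertical axis) against wild type (horizontal axis), as a percentage with the strongest near 0. Members with CP190 and HA summits within 100 bp of each other (red, 237) lie mostly above the diagonal, members with summits further apart (blue, 21) lie near it, and pairs away from dCTCF (grey, 1891) lie slightly below it.

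Both sets of peak calls recorded in each list showed the same. Each list carries the −log10 p of 2 sets of calls, which the files do not identify as the 2 replicates. By these values, both deletion sets placed CP190 lower than both wild-type sets at 217 of 258 members (84.1%, 79.2 to 88.1), against 30.7% of all pairs. The reverse held at 19 members (7.36%), against 46.6% of all pairs. Places in the 2 sets were nearly the same at the members, with a Spearman rho across 258 members of 0.993 in the deletion line and 0.996 in wild type. These are correlations across sites, not across samples. The first set of calls is the list's own −log10 p. Each list also ends at an IDR threshold, which favours peaks that are alike in both sets. Closeness of the 2 sets is therefore partly given by the lists and is no separate support.

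The tagged protein and the dCTCF antibody did not show this at the same members. HA had a lower place in the deletion line at 106 of 259 members (40.9%, 35.1 to 47.0), against 43.7% of all HA pairs. The dCTCF antibody had a lower place at 95 of 259 (36.7%, 31.0 to 42.7), against 38.0% of all its pairs. Both counts were close to those over all pairs. The median change of place at members was −2.12 percentage points for HA and −2.35 for the dCTCF antibody. A lower place by 25 points or more was seen at 3 members for HA (1.16%, against 3.08% of all pairs) and at 5 for the dCTCF antibody (1.93%, against 5.29%). In the 2 sets of calls, both deletion sets were below both wild-type sets at 93 of 259 members for HA (35.9%, against 37.6%) and above them at 129 (49.8%, against 46.6%). For the dCTCF antibody these were 86 of 258 pairs (33.3%, against 32.0%) and 141 (54.7%, against 51.0%). The HA and CP190 lists share the mouse preimmune library, and the dCTCF lists have the rat one.

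**Figure D2:**
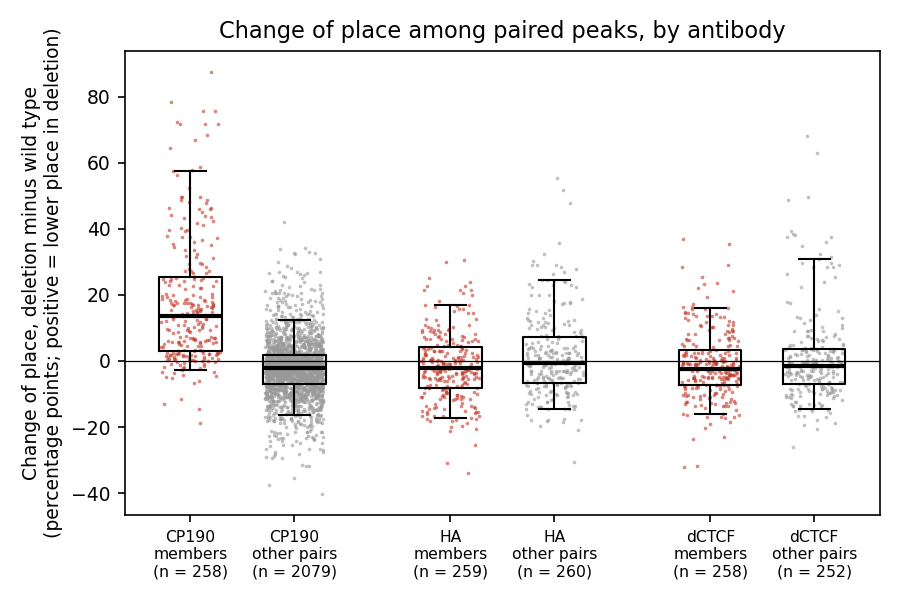
Change of place between genotypes (deletion minus wild type, in percentage points of the pairs) for CP190, HA and dCTCF-antibody peaks, at members (red) and at all other pairs (grey). Points are pairs, boxes the quartiles with the median, and whiskers the 5th to 95th percentiles. The CP190 members have a median of 13.6, whereas HA and dCTCF-antibody members have medians of −2.12 and −2.35.

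The lower CP190 place was not limited to members that ranked weakly in wild type. Pairs were divided into steps of 20% by their wild-type place. Among members in the strongest 20%, 100 of 107 had a lower place in the deletion line (93.5%), against 104 of 297 pairs away from dCTCF (35.0%). In the next steps the members' counts were 56 of 64 (87.5%), 45 of 48 (93.8%) and 24 of 28 (85.7%). The pairs away from dCTCF in those steps gave 118 of 363 (32.5%), 132 of 396 (33.3%) and 155 of 408 (38.0%). Only 11 members fell in the weakest step, of which 8 were lower (72.7%, interval 43.4 to 90.3), against 120 of 427 (28.1%). By place in the deletion line, the same steps held 67, 45, 37, 48 and 61 of the 258 members from strongest to weakest, so the members were spread over the whole range of the pairs.

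**Figure D3:**
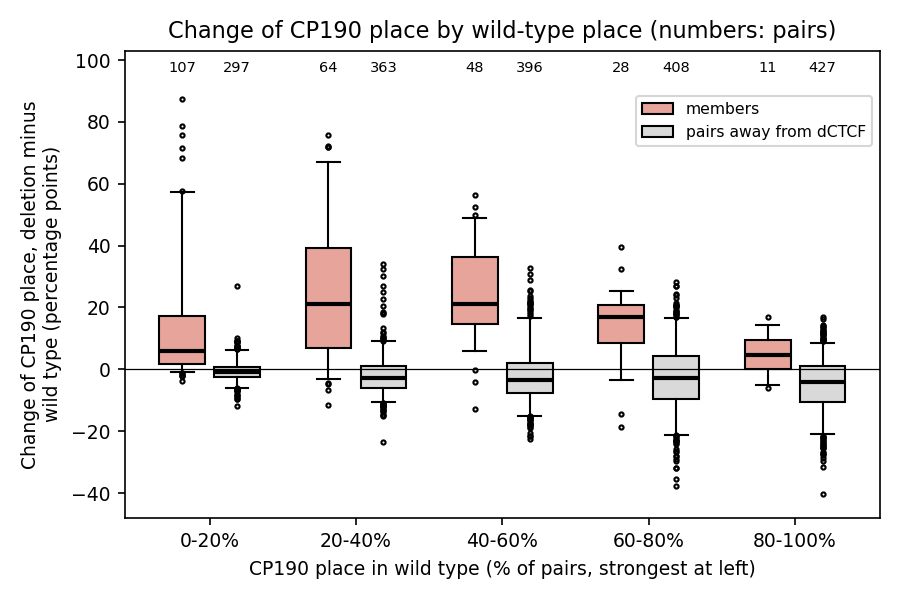
Change of CP190 place (deletion minus wild type, percentage points) by place in wild type in steps of 20%, for members (red) and pairs away from dCTCF (grey). Boxes are quartiles with the median, whiskers the 5th to 95th percentiles, points the pairs beyond, and the numbers on top count the pairs. The members' median is above 0 and that of the pairs away from dCTCF below 0 in each of the 5 steps.

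Where CP190 was centred within the site was measured from the HA summit. The distance between CP190 and HA summits had a median of 32 bp in the deletion line and 19 bp in wild type. Summits lay within 100 bp of each other at 215 of 259 members in the deletion line (83.0%, 78.0 to 87.1) and at 237 in wild type (91.5%, 87.5 to 94.3). Over all wild-type HA peaks with an HA and a CP190 peak in that genotype, members included, the shares were 80.3% in the deletion line and 87.4% in wild type. The dCTCF-antibody summit served as a measure of precision, with medians of 7 bp from HA in the deletion line and 9 bp in wild type. CP190 summits of the 2 genotypes lay a median of 14 bp apart.

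**Figure D4:**
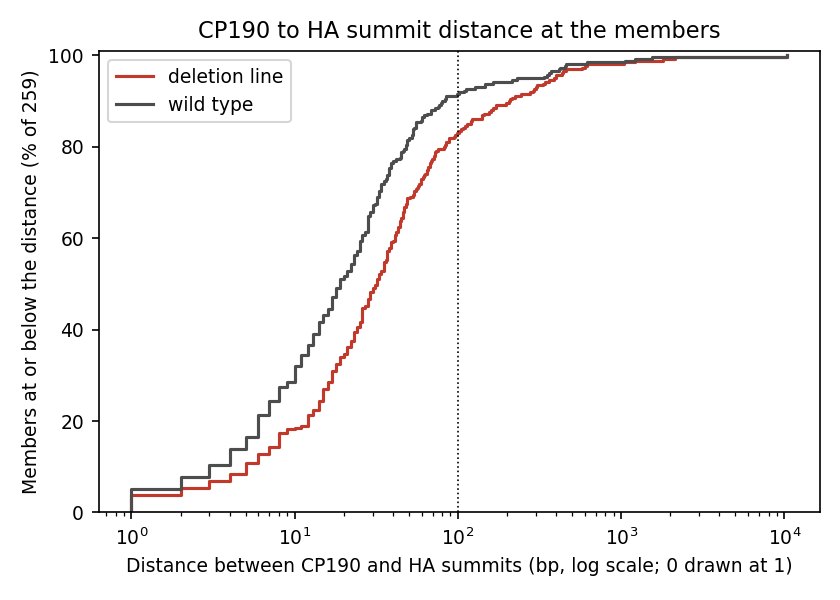
Distance between CP190 and HA summits at the 259 members, as a cumulative percentage over a log axis in bp, for the deletion line (red) and wild type (grey), with a dotted line at 100 bp. The deletion curve lies to the right, with 83.0% of members within 100 bp against 91.5% in wild type.

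Members with CP190 centred on HA in wild type and members with CP190 beside it differed in their counts. Of the 237 paired members with wild-type summits within 100 bp, 222 had a lower CP190 place in the deletion line (93.7%, 89.8 to 96.1), and 67 were lower by 25 points or more. Of the 21 with summits further apart, 11 were lower (52.4%, 32.4 to 71.7) and 0 by 25 points or more, for which the upper limit of the Wilson interval is 15.5%. The median change was 15.1 points with summits together and 0.171 points with summits apart. In those 21 members the wild-type CP190 summit was within 200 bp of an end of a protein-coding gene at 16 (76.2%, 54.9 to 89.4), against 82 of 235 members on the arms with summits together (34.9%, 29.1 to 41.2). This division was made with the results known, and no test of the difference was made. The groups were not matched for wild-type CP190 place.

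The distance to gene ends was described next. On the chromosome arms the HA summit lay within 200 bp of an end of a protein-coding gene at 98 of 257 members (38.1%, 32.4 to 44.2), against 38.0% of all wild-type HA peaks. It lay inside a protein-coding gene at 81 members (31.5%, 26.1 to 37.4), and at 253 of all 623 wild-type HA peaks on the arms (40.6%). At the 63 dCTCF sites of both genotypes with CP190 in wild type only, this share was 31.7% (20 of 63), and at the 124 sites without CP190 in either it was 54.0% (67 of 124, interval 45.3 to 62.6). The lower CP190 place was found near and far from gene ends, at 83 of 97 members within 200 bp (85.6%), 66 of 73 over 200 and up to 1000 bp away (90.4%) and 83 of 86 over 1000 bp away (96.5%). Members were spread over the genome, with 55 of 259 on X (21.2%, interval 16.7 to 26.6; 119 of all 627 wild-type HA peaks were there), 46 on 2L, 41 on 2R, 53 on 3L, 60 on 3R, 2 on 4 and 2 on an unplaced Y scaffold. On each of the 5 large arms the lower place was seen at 85.2% (X) to 95.1% (2R) of the members. Neighbouring members were a median of 290179 bp apart, and the closest pair 2764 bp.

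The HA place was also set beside that of the 63 dCTCF sites that had CP190 in wild type only. At those sites, 62 of which were in an HA pair, HA had a lower place in the deletion line at 45 (72.6%, 60.4 to 82.1), against 40.9% at the members. The dCTCF antibody had a lower place at 40 of 62 (64.5%, 52.1 to 75.3), against 36.7% at the members. At sites without CP190 in either genotype HA was lower at 35 of 121 (28.9%, 21.6 to 37.6) and the dCTCF antibody at 37 of 122 (30.3%, 22.9 to 39.0). Only 13 sites had CP190 in the deletion line only. There HA was lower at 2 (15.4%, 4.33 to 42.2) and the dCTCF antibody at 3 (23.1%, 8.18 to 50.3). The groups started from different wild-type HA places, and the shares were not matched for this. The median wild-type HA place was 31.4% of the way down the pairs at the members and 40.4% at sites with CP190 in wild type only. It was 73.8% at sites without CP190 in either and 67.2% at those with CP190 in the deletion line only. Within the members, CP190 was lower by 25 points or more at 43 of 106 with a lower HA place (40.6%, 31.7 to 50.1) and at 24 of 152 with a higher or equal HA place (15.8%, 10.8 to 22.4). Across the 258 members the changes of CP190 and HA place had a Spearman rho of 0.32 and a Pearson r of 0.42. These sites share libraries and the mouse control, so this is a description. At 136 members CP190 was lower while HA was not.

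The members with the highest wild-type CP190 enrichment were also near the top in the deletion line. Here and for the sites below, places in the sets of calls are by −log10 p among the 2337 pairs, and positions are those of the HA interval in dm6. At 2R 15339065 to 15340084, between Hr51, which encodes a nuclear receptor, and unc-5, which encodes a netrin receptor, CP190 had places 41 and 46 in the 2 deletion sets and place 1 in both wild-type sets. Its fold enrichment was 86.8 in the deletion line and 120 in wild type. The site at 2L 19887291 to 19888367, inside sick, had places 22 and 18 in the deletion sets and place 2 in both wild-type sets, with enrichment of 100-fold in the deletion line and 114-fold in wild type. The site at 3L 21049241 to 21050404, inside siz, which encodes a guanine nucleotide exchange factor for Arf, had place 8 in both deletion sets and places 4 and 3 in the wild-type sets. Its enrichment was 122-fold in the deletion line and 111-fold in wild type, so the place was lower although the fold was not. By fold enrichment all 3 had a lower place in the deletion line, by 0.128 to 1.63 percentage points. They were chosen for their wild-type enrichment and held wild-type places 1, 2 and 3 by fold. That left almost no room for a higher place, so the direction is no finding.

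Members with the highest HA enrichment did not all have CP190 near the top in the deletion line. The site with the highest wild-type HA enrichment, at X 13563022 to 13564563 between CG32633 and Tpst (a tyrosylprotein sulfotransferase gene), had CP190 places 31 and 32 in the deletion sets and 5 and 6 in the wild-type sets. The siz site had the second highest HA enrichment. The next, at X 18843243 to 18844365 between Pvf1, which encodes a ligand related to PDGF and VEGF, and htk, had CP190 places 1600 and 1517 in the deletion sets against 312 and 329 in the wild-type sets. CP190 enrichment there was 6.95-fold in the deletion line and 27.2-fold in wild type, while HA stood at place 13 of 519 in the deletion line and place 3 in wild type.

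The 4 members with the largest fall in CP190 place were chosen for that fall. A high place in wild type and a low one in the deletion line are therefore given by the choice. At X 17751495 to 17752509, inside raskol, a gene of a Ras GTPase-activating protein, places were 2263 and 2185 in the deletion sets and 194 and 183 in the wild-type sets, with enrichment of 3.79-fold in the deletion line and 36.9-fold in wild type. The HA place there was 293 of 519 in the deletion line and 182 in wild type. At 2L 3657211 to 3657758, between for (a cGMP-dependent protein kinase gene) and Drgx (a homeobox gene), CP190 places were 2133 and 1948 in the deletion sets and 263 and 268 in the wild-type sets. HA there was at place 379 in the deletion line and 224 in wild type.

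The other members with the largest falls were chosen in the same way. At 3R 14088552 to 14089425, between foxo, the forkhead factor of insulin signalling, and Npc2b, CP190 places were 2174 and 1989 in the deletion sets against 381 and 367 in the wild-type sets. HA was at place 220 in the deletion line and 109 in wild type. At 2L 15643647 to 15644307, between CG18480 and stol, CP190 places were 2287 and 2234 in the deletion sets against 526 and 579 in the wild-type sets, and HA was at place 234 in the deletion line and 75 in wild type. In each of these 4 members HA and the dCTCF antibody also had a lower place in the deletion line, by fewer percentage points than CP190.

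The 3 members with the smallest overlap, given above, differed among themselves. At the Eh site CP190 places were 2326 and 2330 in the deletion sets and 1319 and 1207 in the wild-type sets. At the CG42680 site they were 607 and 550 in the deletion sets and 329 and 319 in the wild-type sets. At the Moca-cyp site CP190 was near the end of the pairs in both genotypes, with places 2302 and 2285 in the deletion sets and 2269 and 2288 in the wild-type sets, which overlap.

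Few members went the other way, 25 of 258 with a place no lower in the deletion line. The largest rise in place was at 3L 8716034 to 8737156, an HA interval of 21123 bp with its summit beside SrpRbeta (a signal recognition particle receptor gene), where CP190 and HA summits were 10363 bp apart in the deletion line and 10326 bp in wild type. CP190 places were 995 and 1037 in the deletion sets and 1416 and 1504 in the wild-type sets. The next was at 2L 2585240 to 2585712, beside Drp1, a gene of mitochondrial fission, with places 1005 and 998 in the deletion sets and 1322 and 1323 in the wild-type sets. HA was weak there, with 8.26-fold enrichment in the deletion line and 2.50-fold in wild type.

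At 2R 22297642 to 22298734, between CG5819 and wdp, a gene of a leucine-rich repeat protein, CP190 places were 590 and 554 in the deletion sets and 907 and 851 in the wild-type sets, with the CP190 summit 8 bp from HA in both genotypes. At X 15138774 to 15140305, between the ribosomal protein gene RpL37-1 and CG9095, they were 456 and 497 in the deletion sets and 732 and 757 in the wild-type sets. There the CP190 summit lay 332 bp from HA in the deletion line and 337 bp in wild type. Of these 4 members with the largest rises, CP190 was within 100 bp of HA in wild type at the Drp1 and wdp sites and further away at the RpL37-1 and SrpRbeta sites.

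**Figure D5:**
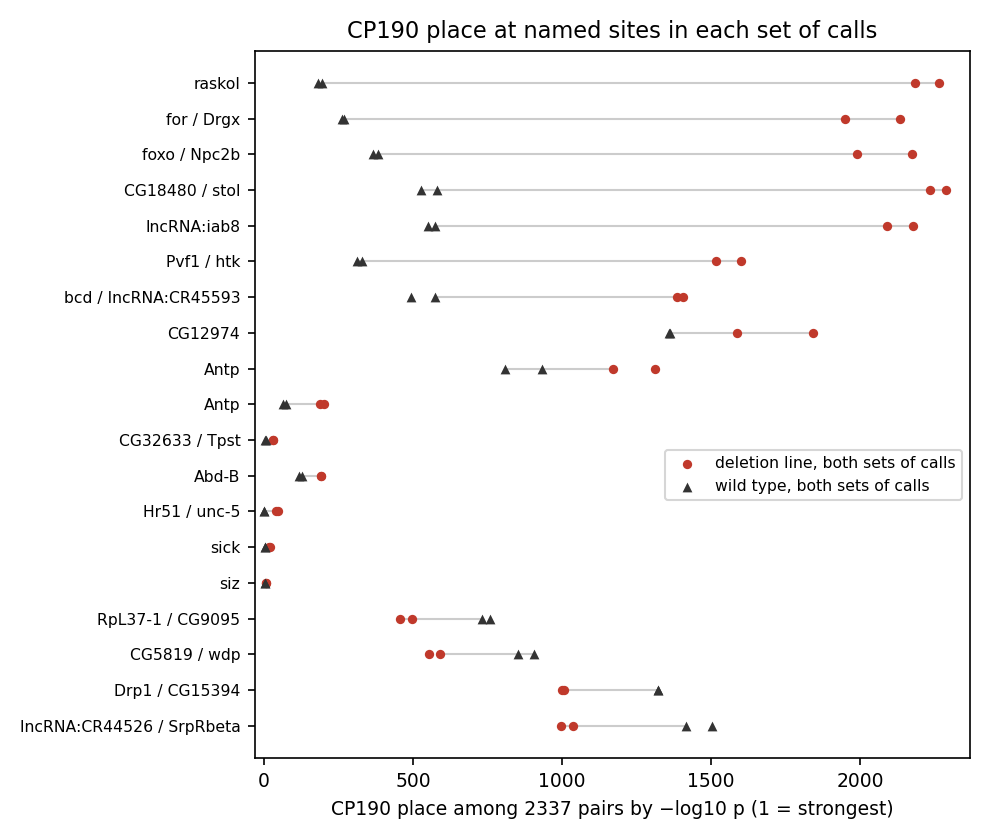
CP190 place among 2337 pairs by −log10 p (1 is the strongest) at named members, with both sets of calls of the deletion line (red circles) and of wild type (dark triangles), ordered by change of place. Labels are the gene that holds the HA summit or its neighbours. At the raskol site the deletion sets are at 2263 and 2185 against 194 and 183 in wild type. The sets of 1 genotype lie further apart at some sites. At the pzg site (label CG12974) the deletion sets are at 1840 and 1588 against 1363 and 1360 in wild type.

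Both members in the bithorax complex, the homeotic cluster from Ubx to Abd-B, had a lower CP190 place in the deletion line, by very different amounts. At 3R 16969274 to 16970328, inside Abd-B, CP190 places were 190 and 191 in the deletion sets and 128 and 118 in the wild-type sets. CP190 enrichment there was 49.3-fold in the deletion line and 45.6-fold in wild type, and HA was at place 17 of 519 in the deletion line and 35 in wild type. At 3R 16868979 to 16869884, inside lncRNA:iab8 and MSAmiP, CP190 places were 2177 and 2088 in the deletion sets and 575 and 550 in the wild-type sets, with enrichment of 3.75-fold in the deletion line and 16.8-fold in wild type. HA there held place 119 in the deletion line and 53 in wild type.

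Other members lay at genes of the listed groups. A gene was counted when a member summit lay inside it or within 1000 bp, which was so for 320 of 13922 protein-coding genes on the arms (2.30%). Of the 8 Hox genes, 2 had a member, Abd-B and Antp. Within Antp, the member at 3R 6911911 to 6912990 had CP190 places 189 and 203 in the deletion sets and 65 and 75 in the wild-type sets. The other, at 3R 6973017 to 6973941, had 1171 and 1312 in the deletion sets against 808 and 932 in the wild-type sets.

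Among 23 segmentation genes found, 1 had a member, bcd, the anterior morphogen gene, at 3R 6759347 to 6760057. CP190 places there were 1406 and 1386 in the deletion sets and 574 and 492 in the wild-type sets. Among 20 genes of architectural proteins found, 1 had a member, pzg, which encodes a zinc finger protein of interbands, at 3L 21285253 to 21286488. Its CP190 places were 1840 and 1588 in the deletion sets and 1363 and 1360 in the wild-type sets, so that both sets were lower in the deletion line at each of these sites. None of 6 cohesin genes found had a member.

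Of 92 ribosomal protein genes, 5 had a member, among them RpL37-1, RpS19a, RpS28a and RpS7. The CP190 place was lower in the deletion line by 4.71 percentage points at RpS7, by 6.59 at RpS19a and by 7.19 at RpS28a. At RpL37-1, described above, it was higher, with a change of −11.4 points. At RpS7 the CP190 summit lay 434 bp from HA in the deletion line and 456 bp in wild type.

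The 2 members on the unplaced Y scaffold could not be set against genes. At the one from 11457 to 12379, CP190 had places 580 and 569 in the deletion sets and 689 and 692 in the wild-type sets. At the one from 25993 to 28207, places were 1339 and 1446 in the deletion sets and 1118 and 1157 in the wild-type sets.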

How the data were processed

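The 6 deposited peak lists were analysed, 1 for each antibody and genotype. Per the submitters' processing notes, cutadapt, Bowtie2, Picard and deepTools are named without a role, as are the builds dm6 and dm3; the peak caller is not given in the sources used here. The lists have 20 columns without a header, in the layout of the IDR tool. Read by that layout, column 7 of the deposited lists gives fold enrichment as a linear ratio to preimmune. The authors also deposited a −log10 p-value for each peak, and as further scores the −log10 p in either set and the −log10 of the global IDR, beside the summit position. The last interval on 3R ends at 32068772, beyond the extent of dm3, so positions are given as dm6, 1-based. Gene names and ends come from a RefSeq table of Release 6 plus ISO1 MT, which holds no strand or exons. The depth per library is unknown.

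Among overlapping peaks the one of highest fold enrichment was used. Places were taken among peaks paired between genotypes, since lists of unequal length cannot be compared by place. Shares carry 95% Wilson intervals. Overlaps were checked against bedtools 2.31.1 in 30 ordered pairs of lists and were identical in 30, and the pairing was tested on simulated data. The members, lists and tests were chosen with earlier results of these data known. The rule for named sites was the 3 members highest in wild-type CP190 and in wild-type HA enrichment, the 4 with the largest change of CP190 place in each direction, those from Ubx to Abd-B, the 3 with the smallest overlap and the 3 sites just outside the rule, and those at listed genes. One member at a listed gene is not reported here. The member without a pair and those on Y were added after their values were seen. The planned count of sites with the dCTCF core motif was not run, because no genome sequence was used here. Python 3.11.15, numpy 2.4.6, pandas 2.3.3, scipy 1.17.1 and matplotlib 3.10.9 were used.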

Additional observations from a re-analysis of the deposited data

How the results depend on the processing

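Over 8 results and 60 alternative values, 49 stayed within the 95% interval of the main share, or within 1.5 times the main number of members, and 11 did not. The share of members with a lower CP190 place ran from 88.0% to 93.7% over its alternatives. The share over all CP190 pairs, computed for those that keep the wild-type HA list and were planned, ran from 40.6% to 41.9%. Ranking by −log10 p and by the first set of calls uses the same values, so these count as 1 alternative although both are among the 60. Summits at most 200 bp apart gave a lower CP190 place at 93.4% of members, with CP190 within 100 bp of HA at 93.0% of members in the deletion line and 97.4% in wild type, values that the choice itself raises. The strongest 50% of every list left 132 members, 31.8% of them within 200 bp of a gene end, with 87.9% of CP190 summits within 100 bp of HA in the deletion line. A distance of 1000 bp gave 66.5% near a gene end. A summit distance of 50 bp gave 68.7% in the deletion line and 81.9% in wild type, and 200 bp gave 89.6% in the deletion line. Places against pairs away from dCTCF only (93.0%) and the removal of members with CP190 over 100 bp from HA (93.7%) were chosen after seeing the data. No paired analysis was possible because the files do not identify either set of calls as a replicate. Leaving out a labelled replicate could not be done for the same reason, and each set of calls taken alone was an alternative, with a lower CP190 place at 90.3% of members in the first and 88.0% in the second. A list ends at its own IDR threshold, 0.01 or 0.05, so a missing peak is not a missing protein.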
